A study of Homo sapiens with 16 samples.

Results

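The genes described here build and cap mucin-type sugar chains. They are the protein-coding genes whose symbols are GALNT, ST3GAL, ST6GAL, ST6GALNAC, ST8SIA, GCNT or FUT followed by a number, together with C1GALT1 and B3GNT6. That rule took 53 of 19974 protein-coding genes annotated by RefSeq: 18 GALNT genes, 6 genes of cores and branches (C1GALT1, B3GNT6 and GCNT1 to GCNT4), 6 ST3GAL genes, 8 ST6GAL and ST6GALNAC genes, 6 ST8SIA genes and 9 FUT genes. H69, a line of human cholangiocytes, the epithelial cells of bile ducts, was given vehicle or recombinant human TGF-beta at 10 ng/ml for 16 h, and the line is the only cell model in the study. Chromatin immunoprecipitation with sequencing was done for SMAD3, the transcription factor that carries the TGF-beta signal to DNA, and for H3K27ac and H3K9ac, histone acetylation marks found at active enhancers and promoters. Per target there were 2 libraries from vehicle cells and 2 from TGF-beta cells, with replicate numbers 4 and 5 in SMAD3 and 1 and 2 in the marks. Values of 2 libraries are given below in that order, and the labels do not say whether replicates came from separate cultures, so p-values measure only the spread between these libraries. No RNA or glycan was measured.

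Mucin-type O-glycosylation starts in the Golgi, where enzymes of the GALNT family attach N-acetylgalactosamine to serine or threonine of a protein. C1GALT1 then adds galactose to form the core that most cells use, B3GNT6 forms another core, and GCNT enzymes add branches. Sialyltransferases of the ST3GAL, ST6GAL, ST6GALNAC and ST8SIA families cap chains with sialic acid, and FUT enzymes add fucose. Some of these enzymes act on N-linked chains or glycolipids instead, such as ST6GAL1, FUT8 and ST3GAL5. On bile duct cells, this sugar coat is known for shielding the cell surface from bile.

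The value of a gene is the length of DNA, in kb, that the authors' peaks covered in a window reaching 10 kb beyond each end of the gene, which says how much of the locus was called and not how strong a signal was. Peak files hold no read counts, so depth is unknown. Peaks numbered 22451 to 34413 per library for SMAD3, 82259 to 92714 for H3K27ac and 54682 to 61297 for H3K9ac. Covered length was 11.2 and 14.5 Mb in vehicle libraries of SMAD3 and 19.6 and 19.6 Mb in its TGF-beta libraries. A log2 change is the TGF-beta mean less the vehicle mean on the log2(length + 500 bp) scale, after each library was centred on its median gene. That centring took out a shift between treatments of 0.32 for SMAD3, 0.09 for H3K27ac and -0.09 for H3K9ac, so a change is relative to the typical gene of its target. Per the file headers, lane 8 held TGF-beta replicate 2 of both marks, and lane 7 their other 6 libraries. All SMAD3 libraries were on lane 8. A lower value can stand for fewer cells with a peak or for less signal per cell, which cannot be told apart here.

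Promoter sequences are shown for 4 members that the results below turn on. In ST6GAL1, SMAD3 peaks appeared at the start site with TGF-beta, and H3K27ac peaks reached into the promoter window. In ST6GALNAC3 H3K27ac peaks appeared at the start site, and in ST6GALNAC6 H3K9ac peaks there were lost. GALNT2, the member that rose in SMAD3, is shown for contrast: SMAD3 peaks covered all 300 bases of its promoter window in all 4 libraries, and its gained regions lay downstream. Each is the run of 250 bases before the RefSeq start site (GRCh38.p14), 5′ to 3′ on the gene's strand. Capitals mark matches, on either strand, to CAGAC, the core of a SMAD-binding element, to GGCGC, a GC-rich SMAD motif, or to TGANTCA, the AP-1 site.
ST6GAL1 (sialyltransferase of N-linked chains), chr3:186930276-186930525, plus strand: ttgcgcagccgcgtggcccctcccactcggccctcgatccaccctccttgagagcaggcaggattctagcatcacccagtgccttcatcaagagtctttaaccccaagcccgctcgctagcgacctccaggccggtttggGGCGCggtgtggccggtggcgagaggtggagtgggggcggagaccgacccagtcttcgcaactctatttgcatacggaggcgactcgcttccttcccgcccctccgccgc
ST6GALNAC3 (sialyltransferase of short O-linked chains and glycolipids), chr1:76074496-76074745, plus strand: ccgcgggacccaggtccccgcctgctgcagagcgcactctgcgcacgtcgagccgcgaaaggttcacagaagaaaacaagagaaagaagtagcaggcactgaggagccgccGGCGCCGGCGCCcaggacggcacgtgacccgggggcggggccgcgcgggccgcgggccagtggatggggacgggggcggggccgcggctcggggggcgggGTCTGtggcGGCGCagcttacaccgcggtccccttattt
ST6GALNAC6 (sialyltransferase of glycolipids), chr9:127905325-127905574, minus strand: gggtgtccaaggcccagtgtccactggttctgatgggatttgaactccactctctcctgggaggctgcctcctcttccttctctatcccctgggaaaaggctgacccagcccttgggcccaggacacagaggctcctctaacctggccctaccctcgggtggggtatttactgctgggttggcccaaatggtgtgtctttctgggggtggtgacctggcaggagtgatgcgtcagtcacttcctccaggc
GALNT2 (initiating enzyme), chr1:230066988-230067237, plus strand: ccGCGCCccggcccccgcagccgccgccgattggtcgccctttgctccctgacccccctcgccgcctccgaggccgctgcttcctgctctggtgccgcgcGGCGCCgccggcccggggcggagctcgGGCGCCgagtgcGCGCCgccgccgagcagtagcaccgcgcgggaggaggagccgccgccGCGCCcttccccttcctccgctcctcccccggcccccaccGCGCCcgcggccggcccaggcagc
ST6GAL1 holds 1 match to GGCGC, at -110 to -106 from the start site. ST6GALNAC3 holds 5 matches to GGCGC and 1 to CAGAC, the latter at -39 to -35. GALNT2 holds 8 matches to GGCGC, and ST6GALNAC6 holds no match to any of the 3 motifs. Where GGCGCC stands, its 2 strands give 2 overlapping matches. Over the 15812 genes with a promoter in the RefSeq table, the same 250 bases hold CAGAC in 36.7%, GGCGC in 57.5% and TGANTCA in 5.05%. Of the 39 members with a promoter there, 16 hold CAGAC, 23 GGCGC and 2 TGANTCA. GC content is 82.8% in GALNT2, 73.2% in ST6GALNAC3, 65.6% in ST6GAL1 and 59.6% in ST6GALNAC6, against a median of 62.4% over all promoters. A match is a run of letters and is not shown to be bound.

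Coverage of the 53 loci was uneven. No peak of any target lay in the windows of 10 members in any of the 12 libraries: FUT5, FUT9, GALNT8, GALNT14, GALNT17, GCNT3, ST6GAL2, ST8SIA2, ST8SIA3 and ST8SIA5. The share of all genes without a peak in all 12 was not counted. Taken by target, 35.8% of members had no peak in any SMAD3 library, 26.4% in any of H3K27ac and 22.6% in any of H3K9ac. Over all genes these shares were 27.5, 23.9 and 20.5%. A gene was tested where its mean over the 4 libraries of a target reached 500 bp, which left 25 members for SMAD3, 36 for H3K27ac and 37 for H3K9ac, and 38 members in at least 1 target. Of all 19974 genes, 12508, 13994 and 14605 were tested. A further 9, 3 and 4 members had some peak length but less than that limit. B3GNT6, the enzyme of the other core, was under the limit in all 3 targets, and GALNT3, an initiating enzyme, reached it in none. Some members passed that limit through 1 treatment alone: FUT7, ST6GALNAC1 and ST8SIA4 with vehicle and FUT4, GALNT16 and GALNT9 with TGF-beta in H3K27ac, GALNT15 with vehicle in H3K9ac, and FUT4, GALNT1 and GALNT9 with TGF-beta in SMAD3. Such genes had to differ to be tested, so the counts below describe the members and are not a test of them as a set.

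Per length of window, the locus of ST6GALNAC4, which sialylates short O-linked chains, was the most covered of the members in each target. H3K27ac peaks took 37.4 and 43.3% of its window with vehicle and 25.7 and 26.7% with TGF-beta. Its neighbour ST6GALNAC6, 1270 bp away on chromosome 9, came next in each target, at 24.6 and 30.1% with vehicle for H3K27ac. The windows of these neighbours overlap, so they are 1 locus and not independent. PIP5KL1 also lies in the ST6GALNAC4 window and AK1 in that of ST6GALNAC6. Other members described below share their windows too, among them GALNT16 with ERH, GALNT18 with CSNK2A3, ST3GAL3 with KDM4A and ARTN, and ST3GAL2 with DDX19A. The same holds for ST3GAL6 with DCBLD2, GALNT15 with DPH3, FUT2 with MAMSTR, GCNT1 with RFK, GALNT2 with LOC124904542 and ST6GALNAC2 with LOC122455342. Windows of FUT6, FUT3 and FUT5 overlap in the same way. ST3GAL2, a sialyltransferase of the common O-linked core, followed for H3K27ac at 16.8 and 16.9% with vehicle, above ST3GAL6 at 12.6 and 13.5% with no overlap between their vehicle libraries. FUT2, which makes the H antigen in epithelia, had 11.5 and 11.3%. GALNT2 had 8.66 and 9.81% and was the most covered GALNT gene in H3K27ac, C1GALT1 had 5.43 and 6.15% and was the most covered gene of cores, and ST8SIA4, which builds polysialic acid, had 0.68 and 1.15%. GALNT4, which lies inside the span of POC1B, was the most covered GALNT gene for H3K9ac and SMAD3. The median member had 1.17% of its window in H3K27ac peaks with vehicle, against 2.83% over all genes. For H3K9ac the medians were 1.23 and 3.24%, and for SMAD3 0.0891 and 0.999%. Member windows ran from 21.9 kb in FUT7 to 1408 kb in GALNT13, and those of ST6GALNAC4 and ST6GALNAC6 were 29.2 and 41.3 kb. Members were not matched to other genes by length, so these medians and ranks may partly reflect gene length, which was not tested.

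SMAD3 was profiled to find where TGF-beta placed it on chromatin. Among the 25 members tested, 1 rose and 0 fell by limma with Benjamini-Hochberg adjustment over all 12508 genes tested, at 0.05. Over all those genes 12.8% passed, 11.2% higher and 1.68% lower. The member was GALNT2 (chromosome 1, 230057789 to 230282122), an initiating enzyme with broad substrates. Its SMAD3 peak length was 1.20 and 1.32 kb with vehicle and 3.49 and 3.32 kb with TGF-beta. Both TGF-beta libraries lay above both vehicle libraries, and the log2 change was 0.83 ± 0.12 (SE, adjusted p = 0.00302). Of the 25 members, 6 had an unadjusted p under 0.05, beside 3732 of the 12508 genes tested. Without the centring 3 members rose and none fell, and over all genes 1825 rose and 11 fell in place of 1395 and 210.

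Other members had more SMAD3 peak length with TGF-beta but did not pass once the shift of the typical gene was taken out. TGF-beta libraries both lay above both vehicle libraries in 17 of the 25 members and below them in 0, where over all genes tested these shares were 68.9% and 1.81%. GALNT6, an initiating enzyme of secretory epithelia, had 0.51 and 0.51 kb with vehicle and 1.24 and 1.15 kb with TGF-beta (log2 change 0.42, limma adjusted p = 0.0703). FUT1, which also makes the H antigen, had 0.914 and 1.25 kb against 1.85 and 2.15 kb (0.34, adjusted p = 0.107). C1GALT1 had 1.45 and 1.48 kb against 1.40 and 1.54 kb, so its libraries overlapped. The median log2 change was 0.01 over the members tested and -0.03 over all genes tested.

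Separate SMAD3 regions were then compared. Peaks of the 4 libraries that overlapped by at least 1 bp were merged, and a region was taken as gained where both TGF-beta libraries and no vehicle library called it, and as lost in the reverse case. In member windows 14 of 106 regions were gained and 0 lost, against 13.7% and 0.669% of all 38390 SMAD3 regions. Of the 14, 7 overlapped an H3K27ac region called in all 4 libraries of that mark and 10 such an H3K9ac region. The shares of all gained SMAD3 regions that did so were not counted, so these overlaps describe the member windows only. GALNT2 gained 2, at chr1:230067921-230068275, within 1 kb of the start site, and at chr1:230105047-230105812. At the latter, 490 and 454 bp were called with TGF-beta and none with vehicle.

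ST6GAL1 gained SMAD3 at its start site (chr3:186930241-186930900), with 0 and 0 bp called with vehicle and 451 and 648 bp with TGF-beta. The mean of its gene window over the 4 libraries stayed under 500 bp of SMAD3, so the gene was not tested. Inside the promoter window, from 250 bases before to 50 after the start site, SMAD3 peaks covered no base in vehicle libraries and 141 and 300 bases in TGF-beta libraries, over the printed GGCGC match in at least the library with all 300. ST6GAL1 was the 1 of 39 member promoters that gained SMAD3, and 1.52% of all promoters did. ST6GALNAC3 gained a SMAD3 region of 280 bp just inside the gene, with 205 and 271 bp called with TGF-beta. Its promoter window was not bare before: SMAD3 peaks covered 0 and 75 bases in vehicle libraries against 152 and 217 in TGF-beta libraries. SMAD3 was called in all 4 libraries in 13 member promoters, against 55.5% of all promoters. ST8SIA6, the most covered ST8SIA gene in SMAD3, is not among the 39 promoters and was not tested. Its window held 0 and 0 kb with vehicle and 0.517 and 0.741 kb with TGF-beta, in 2 gained regions. The region chr10:17454217-17454695 lay across the upper end of the gene in coordinates.

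**Figure D1:**
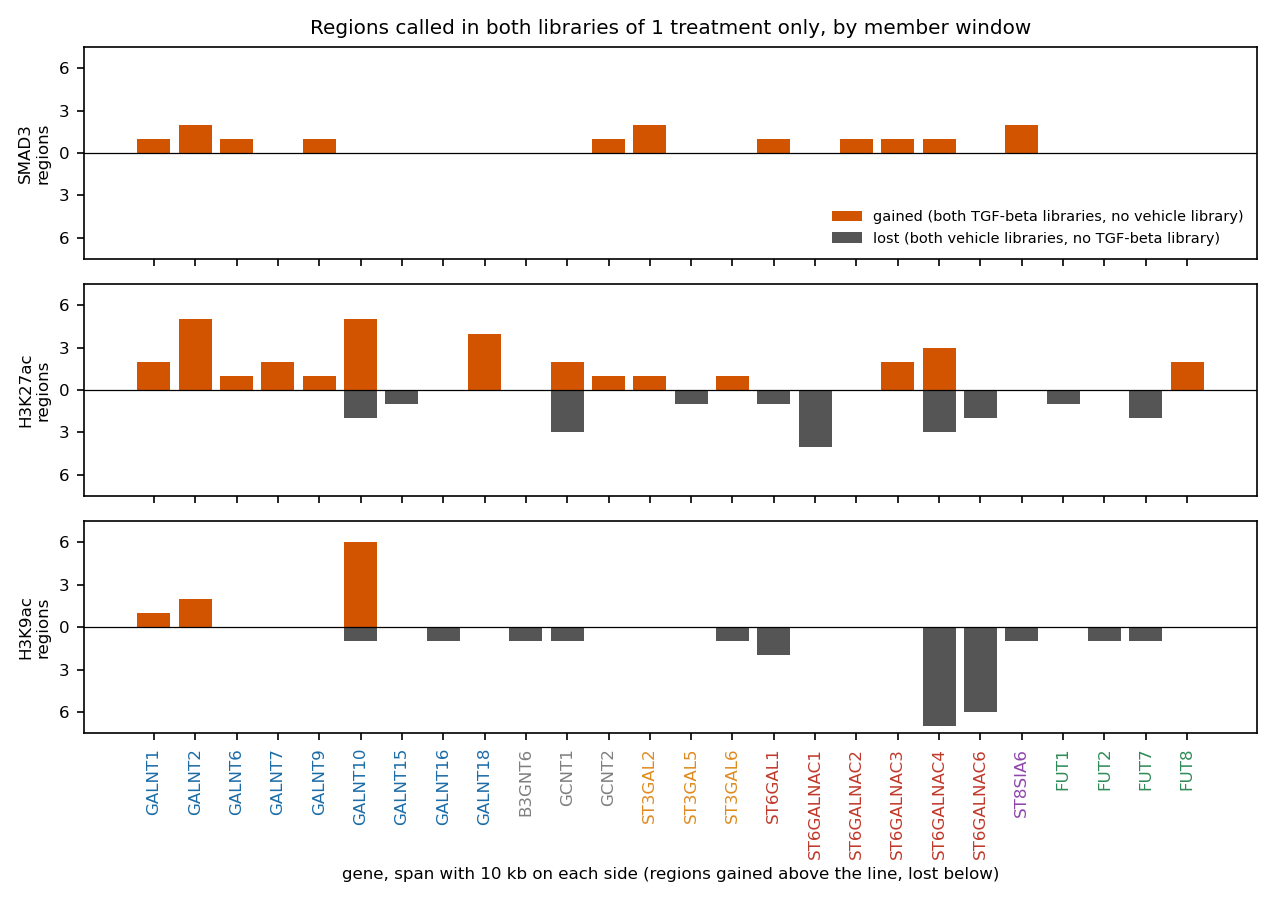
Regions called in both libraries of 1 treatment and in none of the other, in the window of each member (x axis, symbols coloured by enzyme family), for SMAD3, H3K27ac and H3K9ac; bars above the line count gained regions and bars below it lost ones. GALNT10 stands out for H3K9ac with 6 gained, ST6GALNAC1 for H3K27ac with 4 lost, and ST6GALNAC4 and ST6GALNAC6, which share regions, for H3K9ac with 7 and 6 lost.

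H3K27ac was compared to see where active chromatin changed. Of 36 members tested, 6 rose and 10 fell, against 26.4% of all 13994 genes tested that passed, 14.8% higher and 11.7% lower. The members that rose were GALNT1, GALNT6, GALNT10, GALNT16, GALNT18 and FUT4. Those that fell were ST6GAL1, ST6GALNAC1, ST6GALNAC4, ST6GALNAC5, ST6GALNAC6, ST3GAL2, ST3GAL3, ST8SIA4, FUT1 and FUT7. By family, 5 of 12 tested GALNT genes rose and 0 fell, 5 of 6 ST6GAL and ST6GALNAC genes fell, 2 of 6 ST3GAL genes fell, 1 of 2 ST8SIA genes fell, and of 6 FUT genes 1 rose and 2 fell. None of the 4 genes of cores and branches passed. The median log2 change was -0.13 over the members tested and -0.03 over all genes tested. Without centring, 7 members rose and 7 fell, and over all genes 2507 rose and 880 fell in place of 2067 and 1631.

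**Figure D2:**
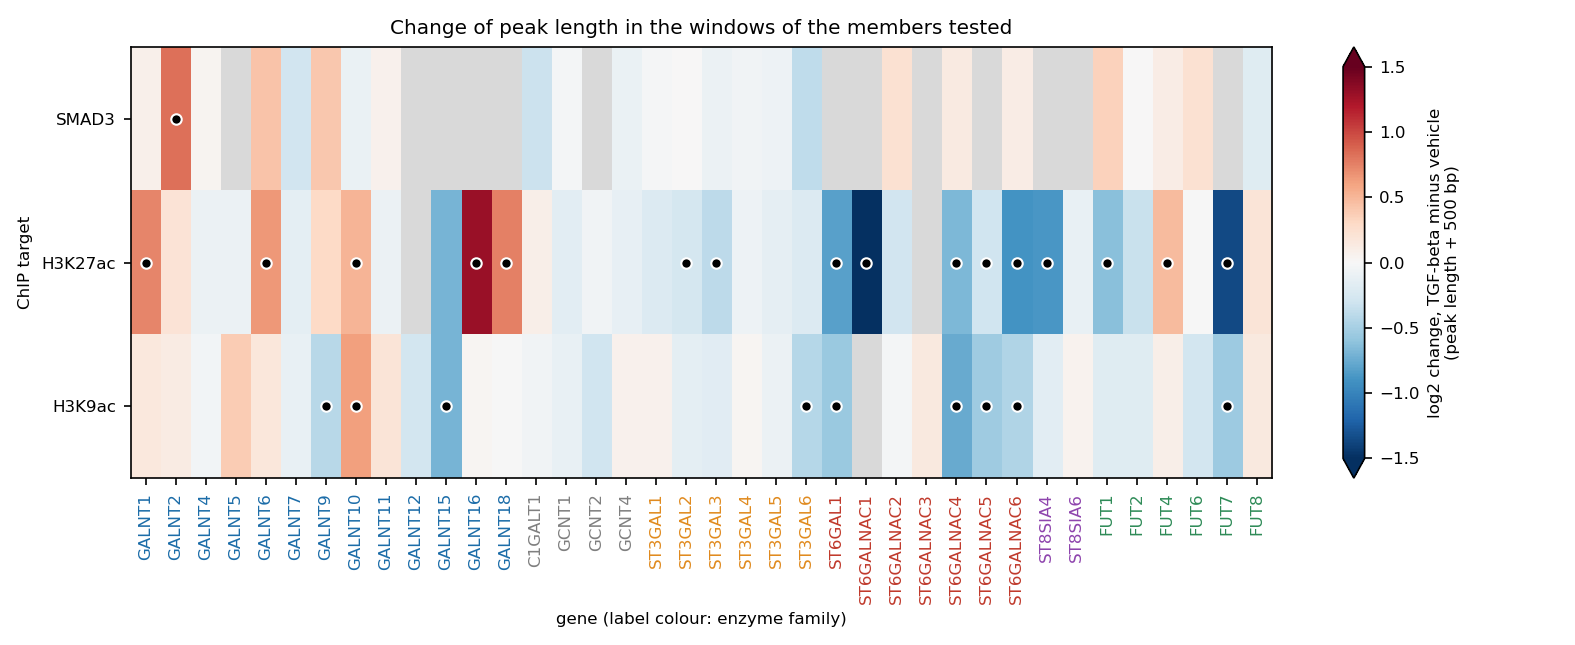
Log2 change of peak length (colour, TGF-beta minus vehicle; values past 1.5 in size take the end colour) for the 38 members tested in at least 1 target (x axis, symbols coloured by family) and each ChIP target (y axis). Black dots mark an adjusted p under 0.05 and grey cells were not tested; the dots on red cells for H3K27ac lie in GALNT genes and FUT4, and those of the ST6GAL and ST6GALNAC genes lie on blue cells in both marks.

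Among the initiating enzymes, GALNT10 held the longest H3K27ac gain in kb. Its window (gene at chromosome 5, 154190733 to 154420984) had 16.8 and 18.1 kb with vehicle and 27.1 and 26.3 kb with TGF-beta (log2 change 0.51 ± 0.07 SE, limma adjusted p = 0.00308). The groups did not overlap. GALNT1, a widely expressed initiating enzyme (chromosome 18, 35580922 to 35711834), had 0.952 and 0.817 kb against 2.02 and 1.87 kb (0.73 ± 0.09, adjusted p = 0.00216). GALNT6 (chromosome 12, 51351252 to 51391673) had 1.71 and 2.39 kb against 3.73 and 3.71 kb (0.65 ± 0.11, adjusted p = 0.00702). CELA1 and SLC4A8 also lie in the GALNT6 window, so its peaks cannot be assigned to GALNT6 alone.

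GALNT18 had 1.54 and 1.80 kb of H3K27ac with vehicle and 3.12 and 3.65 kb with TGF-beta (0.75 ± 0.10, limma adjusted p = 0.00245). GALNT16 was nearly bare with vehicle, at 0 and 0.158 kb, and had 1.17 and 0.849 kb with TGF-beta (1.30 ± 0.14, adjusted p = 0.00102). All TGF-beta libraries of these genes lay above the vehicle libraries. FUT4, which makes Lewis x structures, had 0.326 and 0.359 kb against 0.636 and 0.871 kb (0.48 ± 0.11, adjusted p = 0.0214). GALNT2 had 21.2 and 24.0 kb against 27.8 and 27.6 kb and did not pass (0.21 ± 0.08, adjusted p = 0.0999). Leaving out the library on lane 8 kept GALNT1, GALNT6, GALNT10 and GALNT18 past the threshold and took GALNT16 and FUT4 under the length limit, so these were not tested within lane 7.

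Of 20 sialyltransferase genes 14 were tested for H3K27ac, and 8 fell and 0 rose, beside 11.7% lower and 14.8% higher over all genes tested. Of the 8, ST6GALNAC1 and ST8SIA4 met the length limit through vehicle alone, and ST6GALNAC4 and ST6GALNAC6 are 1 locus. ST6GALNAC3, at 0 and 0 kb with vehicle and 0.637 and 0.558 kb in TGF-beta libraries, stayed under that limit and is not in the count. ST6GALNAC1 (chromosome 17, 76617407 to 76643757), which makes the sialyl-Tn antigen, had 2.17 and 2.43 kb of H3K27ac with vehicle and was listed at 0 in both TGF-beta libraries (limma adjusted p = 1.36e-05). Because the gene has no H3K27ac peak left with TGF-beta, no fold is given. In SMAD3 and H3K9ac it was listed at 0 in all libraries, vehicle included. ST6GAL1 (chromosome 3, 186930526 to 187078553) had 2.60 and 2.83 kb against 1.84 and 1.12 kb (-0.81 ± 0.16, adjusted p = 0.0104). This is the locus that gained SMAD3 at its start site.

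At the shared locus on chromosome 9 (127885321 to 127917041), ST6GALNAC4 had 10.9 and 12.6 kb of H3K27ac with vehicle and 7.48 and 7.79 kb with TGF-beta (-0.68 ± 0.08, limma adjusted p = 0.00187). ST6GALNAC6 had 10.2 and 12.5 kb against 6.42 and 5.96 kb (-0.90 ± 0.09, adjusted p = 0.000959). No TGF-beta library reached the vehicle libraries in either. With 50 kb on each side in place of 10 kb these changes were -0.16 and -0.08 and did not pass. ST6GALNAC5, a ganglioside sialyltransferase, had 3.33 and 3.60 kb against 2.83 and 3.01 kb (-0.30 ± 0.08, adjusted p = 0.0325). That call was lost without centring and in each of the 4 fits that omitted 1 library. ST6GALNAC2, another enzyme of short O-linked chains, had 2.84 and 3.17 kb against 2.44 and 2.68 kb and missed the threshold (-0.28, adjusted p = 0.0517).

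Of the ST3GAL genes, ST3GAL3 and ST3GAL2 fell. ST3GAL3, which sialylates galactose on several kinds of chain, had 5.0 and 4.9 kb of H3K27ac against 3.84 and 3.95 kb (-0.40 ± 0.08, limma adjusted p = 0.0122). ST3GAL2 had 13.9 and 14.1 kb against 12.9 and 11.8 kb (-0.27 ± 0.08, adjusted p = 0.0475), a call that was lost in 11 of 14 other settings. ST3GAL1, the main enzyme that caps the common O-linked core, had 3.34 and 3.12 kb against 2.86 and 3.0 kb and did not pass (-0.21, adjusted p = 0.129). ST8SIA4 had 0.795 and 1.33 kb against 0.616 and 0.215 kb (-0.87 ± 0.22, adjusted p = 0.0277).

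Of the fucosyltransferases, FUT7, which completes sialyl Lewis x, the ligand of selectins, had 1.55 and 1.01 kb of H3K27ac against 0.149 and 0.325 kb (-1.36 ± 0.19, limma adjusted p = 0.00306). The lost regions of its window lay 8.5 and 3.44 kb from its start site, outside the gene, where the window also holds ABCA2 and NPDC1. FUT1 had 1.62 and 2.30 kb against 1.27 and 1.08 kb (-0.63 ± 0.12, adjusted p = 0.0104), in a window shared with FGF21, IZUMO1 and RASIP1. The FUT1 call was lost with 2.5 or 50 kb on each side and with only peaks of a deposited score of at least 5. Its lost region lay outside the gene, 16.7 kb from the start site, and its promoter window held no H3K27ac peak in any library. FUT2 had 3.45 and 3.39 kb against 3.29 and 2.40 kb (adjusted p = 0.0986), and FUT8, which fucosylates the core of N-linked chains, 2.55 and 3.36 kb against 3.73 and 3.59 kb (adjusted p = 0.229). Neither passed. Within lane 7, 11 of the 16 members called passed again, and ST3GAL2, ST6GALNAC5 and ST8SIA4 did not.

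**Figure D3:**
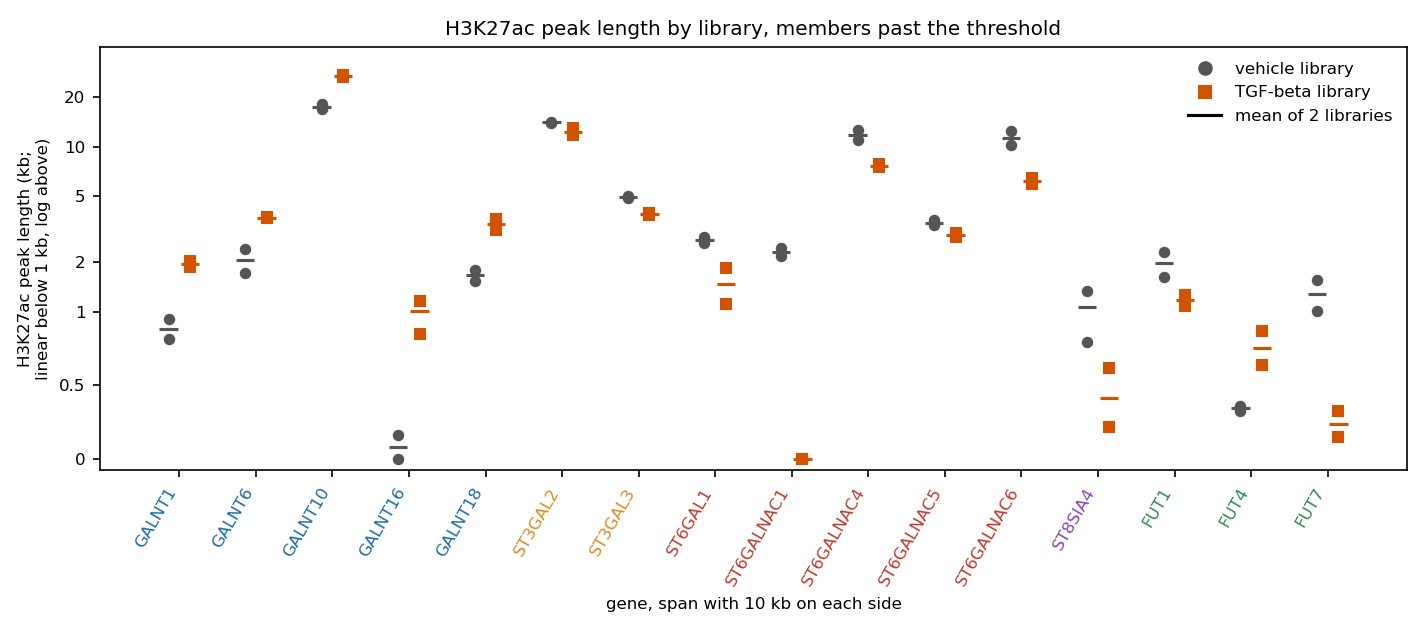
H3K27ac peak length in kb (y axis, linear below 1 kb and logarithmic above) in each vehicle library (circles) and TGF-beta library (squares), with the mean of 2 libraries as a bar, for the 16 members past the threshold. GALNT10 reaches 27.1 kb, ST6GALNAC1 drops to 0 in both TGF-beta libraries, and no TGF-beta library overlaps the vehicle libraries of its gene.

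TGF-beta libraries both lay above both vehicle libraries in 10 of the 36 members and below them in 14, where over all genes tested the shares were 40.7% and 20.9%. No gene of cores and branches passed. C1GALT1 had 6.04 and 6.84 kb of H3K27ac with vehicle and 7.43 and 7.26 kb with TGF-beta (0.09, limma adjusted p = 0.433). GCNT1, the enzyme that branches the common core, had 5.03 and 5.58 kb against 4.95 and 5.09 kb (-0.16, adjusted p = 0.182). These p-values do not show that the loci were equal. Over the 20 members that did not pass, log2 changes ran from -0.70 in GALNT15, where 1 TGF-beta library lay within the vehicle values, to 0.30 in GALNT9.

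In member windows, 32 of 316 H3K27ac regions were gained and 18 lost, against 12% and 4.72% of all 104387 regions. No SMAD3 region of any kind overlapped 29 of the 32 gained regions and 16 of the 18 lost ones. Inside the gene but away from its start site lay 22 of the 32 gained regions and 12 of the 18 lost ones. Of the 120 regions called in all 4 libraries, 74 lay there too. These shares were not taken over all genes. In GALNT1 the gained regions were chr18:35616489-35617001 and chr18:35617170-35617684, side by side 35.8 and 36.5 kb into the gene. GALNT2 gained 5 regions, 4 of them between 7.72 and 13.9 kb from the start site. GALNT18 gained 4, spread through the gene, and GALNT10 gained 5 and lost 2. GCNT1 gained 2 and lost 3, with no call for the window as a whole. ST6GALNAC1 lost 4, all between 76640064 and 76643715 on chromosome 17, at the upper end of the gene in coordinates, the longest with 906 and 979 bp in the vehicle libraries.

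At start sites, few member promoters changed in H3K27ac. Of 39, 16 were called in all 4 libraries, 2 were gained, 0 lost and 21 had no peak, against 56.3% of all promoters called in all 4, 0.803% gained and 0.405% lost. Both gains were sialyltransferases. In ST6GAL1, peaks covered 0 and 0 bases in vehicle libraries against 35 and 42 in TGF-beta libraries, and in ST6GALNAC3 0 and 0 against 36 and 58. The ST6GAL1 gain holds for the promoter window only. Its H3K27ac region there was also called with vehicle, outside that window, and was not a gained region. In ST6GALNAC3 a gained region of 484 bp also ran into the gene (chr1:76074796-76075279) and overlapped the gained SMAD3 region there. H3K9ac was called at the ST6GALNAC3 promoter in all 4 libraries, over 47 and 64 bases against 76 and 102. In FUT4 the covered bases of the promoter numbered 52 and 58 in vehicle libraries and 223 and 228 in TGF-beta libraries. In ST6GALNAC6 they were 300 and 300 against 269 and 27. Only the listed start site of each gene was read, and in several members it lies inside the gene span, among them FUT8, GALNT2, C1GALT1, GALNT11 and ST6GALNAC6. FUT8 had no H3K27ac peak in its promoter window. Elsewhere its gene window held 3 H3K27ac regions called in all 4 libraries.

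H3K9ac gave the second view of active chromatin. Of 37 members tested, 1 rose and 8 fell, against 9.47% of all 14605 genes tested that passed, 4.25% higher and 5.22% lower. GALNT10 rose, and FUT7, GALNT9, GALNT15, ST3GAL6, ST6GAL1, ST6GALNAC4, ST6GALNAC5 and ST6GALNAC6 fell. By family, 4 of 6 ST6GAL and ST6GALNAC genes fell and 0 rose, and of 13 GALNT genes 1 rose and 2 fell. None of 4 genes of cores and branches passed, nor did either ST8SIA gene. The median log2 change was -0.09 over the members tested and 0.0028 over all genes tested. Without centring 0 members rose and 4 fell, and over all genes 180 rose and 377 fell in place of 621 and 762.

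GALNT10 had 8.63 and 6.56 kb of H3K9ac with vehicle and 10.4 and 11.7 kb with TGF-beta (0.62 ± 0.10, limma adjusted p = 0.00986). Of 9 H3K9ac regions gained in member windows, 6 were in GALNT10, and 3 of these lay between 7.33 and 8.83 kb from its start site. The longest, chr5:154199120-154200003, had 604 and 884 bp called with TGF-beta and none with vehicle. All 6 overlapped H3K27ac regions called in all 4 libraries of that mark, and the share of all gained H3K9ac regions that did so was not counted. GALNT10 was the 1 member that rose in both marks, and the share of all genes that did was not counted.

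ST6GAL1 had 3.10 and 2.56 kb of H3K9ac against 1.70 and 1.55 kb (-0.55 ± 0.10, limma adjusted p = 0.0154). Its start site kept H3K9ac, with 256 and 248 bases of the promoter covered in vehicle libraries and 248 and 300 in TGF-beta libraries. Loss lay far inside the gene. Lost H3K9ac regions at chr3:187063237-187063695 and chr3:187064484-187064985 were 133 and 134 kb from the start site, close to the lost H3K27ac region at chr3:187062199-187062543.

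ST6GALNAC4 had 6.59 and 5.86 kb of H3K9ac against 2.47 and 4.2 kb (-0.75 ± 0.16, limma adjusted p = 0.0267), a call that was lost in 6 of 14 other settings. ST6GALNAC6 had 7.29 and 7.39 kb against 4.70 and 5.04 kb (-0.46 ± 0.08, adjusted p = 0.0139). The windows of these neighbours lost 7 and 6 H3K9ac regions, most of them shared, out of 17 lost in all member windows. In ST6GALNAC6, 3 lost regions lay within 1 kb of the start site, the nearest at chr9:127904969-127905404 with 436 and 161 bp in the vehicle libraries. Its promoter, printed above, had 130 and 71 bases in H3K9ac peaks with vehicle and 0 and 0 with TGF-beta. This was the 1 member promoter of 39 that lost H3K9ac, and 0.576% of all promoters did.

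ST6GALNAC5 had 1.5 and 1.39 kb of H3K9ac against 0.740 and 0.772 kb (-0.54 ± 0.08, limma adjusted p = 0.00561), and FUT7 2.43 and 2.42 kb against 1.32 and 1.45 kb (-0.54 ± 0.08, adjusted p = 0.00579). For FUT7 the change was 0.02 with 2.5 kb on each side in place of 10 kb. ST3GAL6, which caps galactose of N-linked chains and glycolipids, had 5.42 and 5.37 kb against 3.28 and 3.99 kb (-0.42 ± 0.08, adjusted p = 0.0206). GALNT15 had 1.09 and 0.590 kb against 0.185 and 0.349 kb (-0.69 ± 0.14, adjusted p = 0.0247), and GALNT9 1.87 and 1.88 kb against 1.04 and 1.31 kb (-0.42 ± 0.08, adjusted p = 0.0214). In each of these genes the groups did not overlap, and all 9 H3K9ac calls passed again within lane 7. Without TGF-beta replicate 1, GALNT15, GALNT9 and ST3GAL6 did not pass.

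**Figure D4:**
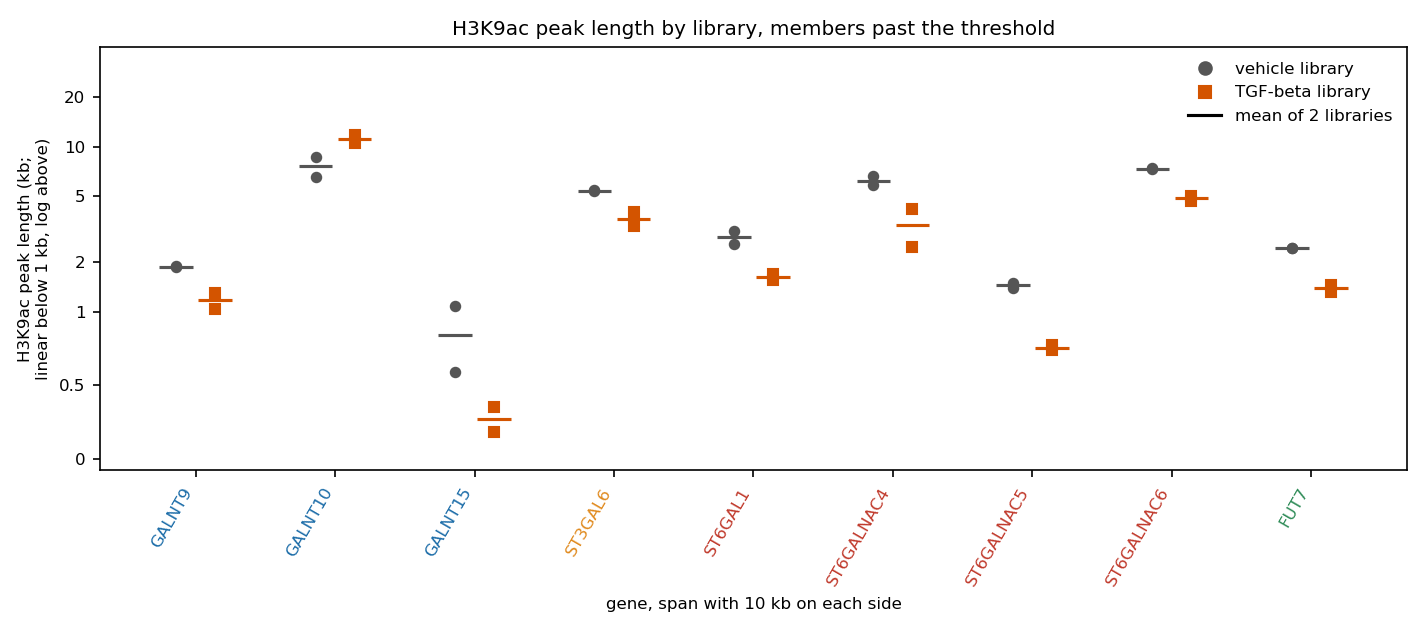
H3K9ac peak length in kb (y axis, linear below 1 kb and logarithmic above) in each vehicle library (circles) and TGF-beta library (squares), with the mean of 2 libraries as a bar, for the 9 members past the threshold. GALNT10 is the 1 gene whose TGF-beta libraries lie above its vehicle libraries, at 10.4 and 11.7 kb.

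In H3K9ac the TGF-beta libraries both lay above both vehicle libraries in 2 members and below in 19 of 37, where over all genes tested the shares were 9.4% and 40.9%. Among the 28 members that did not pass, log2 changes ran from -0.30 in GCNT2 to 0.38 in GALNT5. H3K9ac regions in member windows numbered 210, of which 9 were gained and 17 lost, against 5.15% and 6.15% of all 68046 regions. H3K9ac was called in all 4 libraries in 20 of 39 member promoters, against 61.6% of all promoters, and gained in 0, against 0.285%.

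The marks were then compared with each other. Past the threshold in both, 5 members fell: FUT7, ST6GAL1, ST6GALNAC4, ST6GALNAC5 and ST6GALNAC6. The share of all genes that fell in both was not counted, so this describes these members only. ST6GALNAC4 and ST6GALNAC6 are 1 locus, and FUT7 met the length limit in H3K27ac through vehicle alone. No member was called in opposite directions. A treatment by mark term in limma asked whether the 2 changes of a gene differ, over 13600 genes, of which 7.55% passed. Of 35 members tested, 4 passed, all of them GALNT genes with the more positive change in H3K27ac. Of these, GALNT16 and GALNT9 met the length limit in H3K27ac through TGF-beta alone, so they had to differ to be tested. GALNT16 had log2 changes of 1.30 in H3K27ac and 0.03 in H3K9ac (difference 1.26 ± 0.17 SE, adjusted p = 0.00328). Its H3K9ac peak length was 1.45 and 1.31 kb with vehicle and 1.32 and 1.29 kb with TGF-beta, so the locus carried H3K9ac in all 4 libraries.

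GALNT18 had changes of 0.75 and -0.01 (difference 0.76, limma adjusted p = 0.0147), GALNT9 0.30 and -0.42 (0.72, adjusted p = 0.00915), and GALNT1 0.73 and 0.16 (0.58, adjusted p = 0.0193). Without H3K27ac TGF-beta replicate 2, the library on lane 8, none of these 4 passed. GALNT18 then had a difference of 0.64 (adjusted p = 0.056) and GALNT1 of 0.60 (adjusted p = 0.0525), while GALNT16 and GALNT9 dropped under the length limit, as they also did without TGF-beta replicate 1 of that mark. GALNT1 missed the threshold as well without H3K27ac TGF-beta replicate 1 (adjusted p = 0.066), H3K9ac vehicle replicate 1 (0.0623) or 2 (0.0517), or H3K9ac TGF-beta replicate 2 (0.0727). GALNT18 missed it without H3K9ac TGF-beta replicate 1 (adjusted p = 0.0571). The H3K27ac region gained in the GALNT9 window, chr12:132189337-132189638, lay outside the gene, 140 kb from its start site. The promoter window of GALNT9 held no peak of any target, and with 2.5 kb on each side the gene was not in this test. For GALNT10 and the ST6GAL and ST6GALNAC genes the test found no difference between the marks past the threshold, which does not show that the marks changed alike.

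**Figure D5:**
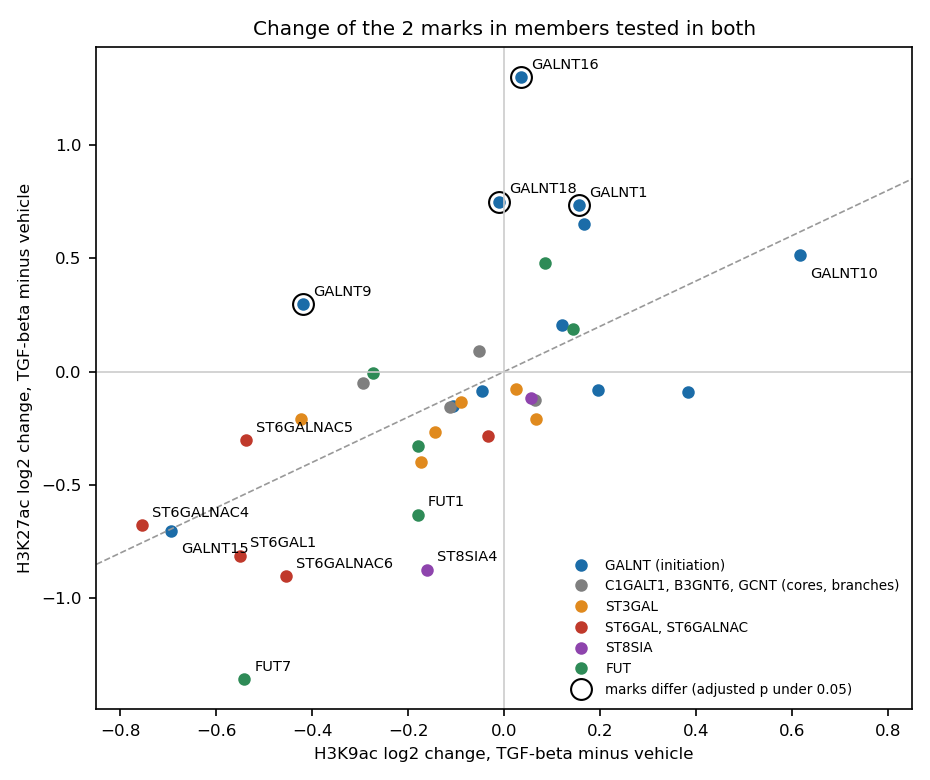
Log2 change with TGF-beta in H3K9ac (x axis) against that in H3K27ac (y axis) for the 35 members tested in both marks, coloured by enzyme family, with the line of equal change dashed. Circled GALNT16, GALNT18, GALNT9 and GALNT1 lie above the line and differed between the marks, and the named ST6GAL and ST6GALNAC genes lie low and to the left.

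Other genes of the pathway were taken from a list of 75 by function, of which 74 were matched: extension enzymes, sulfotransferases, enzymes of sugar nucleotide supply, Golgi transporters, sialidases and a sialic acid acetyltransferase, and mucin proteins. In SMAD3, 3 of 45 tested rose and 3 fell, beside 11.2% higher and 1.68% lower over all genes tested. B4GALT7, a galactosyltransferase of proteoglycan linkers, rose from 1.24 and 1.68 kb to 4.57 and 4.52 kb (log2 change 1.05, limma adjusted p = 0.000951), and CHST3, a chondroitin sulfotransferase (0.79), and B4GALT1, which extends chains with galactose (0.72), rose as well. MUC6, a gel-forming mucin (-3.15), GMDS, which makes GDP-fucose (-0.57), and B4GALT6 (-0.44) fell. Without centring, 5 rose and 1 fell.

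In H3K27ac, 10 of 56 tested pathway genes rose and 8 fell, or 13 and 6 without centring, where 14.8% of all genes tested were higher and 11.7% lower. UAP1 and PGM3, which act in a row to make UDP-N-acetylglucosamine, rose from 1.91 and 2.20 to 3.83 and 3.78 kb and from 1.36 and 1.27 to 2.54 and 2.54 kb (log2 changes 0.67 and 0.65, limma adjusted p = 0.0014 and 0.00202). B4GALNT2, the enzyme of the Sd(a) antigen (0.90), and B4GALT3 (0.75) rose too. Fallen genes were led by MUC6 (-1.77), CASD1, the acetyltransferase of sialic acid (-1.29), MUC2 (-0.80) and the sialidase gene NEU2 (-0.63). CASD1 had 4.99 and 6.64 kb with vehicle and 2.48 and 1.97 kb with TGF-beta. Of 8 mucin genes tested 4 fell and 2 rose, and the latter, MUC12 and MUC17, held the same peaks. In H3K9ac, 0 of 58 rose and 3 fell, MUC6 (-2.40), MUC5AC (-0.85) and B3GALT6 (-0.43), beside 4.25% higher and 5.22% lower over all genes tested.

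Markers of cell types were read in the same way in H3K27ac. KRT7, a keratin of bile duct cells, had 22.0 to 23.3 kb in the 4 libraries, while CFTR, a chloride channel of bile ducts, was listed at 0 in each. The 7 cholangiocyte markers summed to 35.3 and 37.8 kb with vehicle against 42.1 and 41.9 kb (of 5 tested 2 rose and 2 fell). Of the 5 hepatocyte markers ALB and TTR were listed at 0 in each library, SERPINA1 had 6.60 to 8.05 kb, and CYP3A4 rose from 0.176 and 0.851 to 2.11 and 2.11 kb (limma adjusted p = 0.0112). Their sum was 6.97 and 8.65 kb against 10.4 and 10.2 kb. Of the 5 mesenchymal markers COL3A1 and DES were at 0, PDGFRB and THY1 rose and ACTA2 fell, and the sum was 18.5 and 19.9 kb against 24.8 and 22.9 kb. PDGFRB alone had 11.4 to 16.4 kb. The 5 leukocyte markers summed to 15.9 and 18.2 kb against 14.2 and 14.3 kb (1 of 4 tested fell), and the 4 endothelial ones to 20.3 and 19.9 kb against 23.1 and 22.7 kb (1 of 3 tested rose). The part of these in the members' changes was not tested.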

How the data were processed

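Data were 12 peak files, 1 per library of H69 cells, and the 4 input samples were not analysed here. Chromatin was crosslinked for 10 min and 51-base reads were sequenced from both ends, per the labels' protocols. Per the submitters' processing notes, the authors used BWA, Picard, MACS2 and bedtools with the hg38 build. The deposited score is -log10 of a p or q value. Which of them, and the versions and settings, are not stated in the sources used here. Scores served only in 1 alternative setting. Other deposited values used are the start and end of each peak (unit other, no score of their own).

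Gene spans came from RefSeq GRCh38.p14, the same build as hg38. The length inside peaks per gene window (span with 10 kb on each side) was taken as log2(length + 500 bp) where its mean reached 500 bp. Each library was centred on its median over those genes covered in all 4 libraries. The test of treatment was limma's (version 3.58.1, R 4.3.3), with Benjamini-Hochberg adjustment at 0.05 over all genes tested. For 1 gene, 2 libraries against 2 allow no exact permutation p below 0.333. Steps were tested on simulated data. Regions were merged from peaks that overlapped by at least 1 bp, and promoters are 250 bases before to 50 after RefSeq start sites. Other steps used Python 3.11.15, numpy 2.4.6, pandas 2.3.3 and matplotlib 3.10.9. The members, the lists and the tests were chosen with earlier results of these data known. Members named are all those past the threshold, the most covered of each family, and 12 fixed by name; pathway genes are named up to 4 per direction and target.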

Additional observations from a re-analysis of the deposited data

Results flagged for a closer look

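The change with TGF-beta differed between H3K27ac and H3K9ac, by the treatment by mark term of limma, in 4 of 35 members tested, beside 7.55% of all genes tested. None of the 4 passed without H3K27ac TGF-beta replicate 2, and GALNT16 and GALNT9 met the length limit in H3K27ac through TGF-beta alone. The difference in log2 change, H3K27ac minus H3K9ac, was 1.26 for GALNT16, 0.72 for GALNT9, 0.76 for GALNT18 and 0.58 for GALNT1. Both H3K27ac libraries with TGF-beta lay above both vehicle libraries in all 4 genes. In H3K9ac they lay below in GALNT9 and overlapped in the other genes. The H3K27ac region gained in the GALNT9 window lay outside the gene.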

How the results depend on the processing

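Read depth is unknown, so loci with little peak length carry the least certain values. Over all settings that could be fitted, 6 of 16 H3K27ac calls of members were kept in each (GALNT1, GALNT10, GALNT16, GALNT18, ST6GAL1 and ST6GALNAC1), 2 of 9 in H3K9ac (ST6GAL1 and ST6GALNAC5), and the 1 in SMAD3 (GALNT2). GALNT16 could be fitted in only 12 of 14 settings, since it fell under the length limit when either TGF-beta library was left out. In the main fit GALNT16 and ST6GALNAC1 met that limit through 1 treatment alone. Where a library was left out, the remaining 1 of its group was taken to vary like the others. The cause of the changes below was not tested. Direction reversed with 2.5 kb on each side for B3GNT7 in H3K27ac (-0.17) and FUT7 in H3K9ac (0.024), and with 50 kb for GALNT9 (-0.41), B3GNT7 (-0.051) and B3GNT5 (-0.0024) in H3K27ac. With 50 kb, calls over all genes were 3021 in SMAD3, 6019 in H3K27ac and 2316 in H3K9ac, pathway calls 17, 33 and 11, and member calls in SMAD3 3. Member calls in SMAD3 were also 3 with a pseudocount of 100 bp, without the filter and without centring. With equal numbers of peaks in each library, SMAD3 gave 712 calls over all genes and 3 in the pathway. Without centring, H3K9ac gave 557 calls over all genes and 4 in members. Pathway calls in H3K9ac were 1 with 2.5 kb and 5 with limma's trend and robust options. Leaving out each replicate in turn gave 789 to 1814 calls over all genes and 1 to 2 in members for SMAD3, 2383 to 3230 over all genes for H3K27ac, and 899 to 1546 over all genes and 2 to 5 in the pathway for H3K9ac. For the difference between marks it gave 511 to 973 over all genes and 1 to 6 in members. The lowest came without vehicle replicate 4 in SMAD3, without TGF-beta replicate 2 in H3K27ac and without TGF-beta replicate 1 in H3K9ac. With the replicate number as a block, member calls were 1 in SMAD3, 17 in H3K27ac and 9 in H3K9ac, and 4 differed between marks. The numbers are not said to pair cultures, and differences between replicates of the treatments correlated at -0.07, -0.02 and -0.14 over genes in SMAD3, H3K27ac and H3K9ac.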
